A study of Mus musculus with 6 samples.

Results

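Heat shock proteins and the J-domain proteins that serve them as cochaperones were examined in mouse hearts 72 h after ischemia-reperfusion (IR). The members were the genes whose platform symbol begins with Hspa, Hspb, Hspd1, Hspe1, Hsph1, Hsp90a or Dnaj, together with Hsf1, Hsf2, Cryab and Bag1. The endoplasmic reticulum (ER) chaperone genes Hspa5, Dnajb9, Dnajb11 and Dnajc3 were left out. The rule found 67 genes, measured by 133 of the 45281 probes of an Illumina bead array. No probe carried the name Hsf1 or Hsp90ab1, so these genes are not analysed here. Of the 67 genes, 52 had a probe detected on at least 3 of the 6 arrays and were tested among 10204 genes.

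The arrays held labelled total RNA from hearts of male wild-type C57Bl6 mice on regular chow. Their age was not given. The 3 uninjured samples came from mice described as not operated on, whereas the column names of the signal table call them sham, and the sources used here do not settle which holds. The 3 IR samples came from mice anesthetized with ketamine and sodium pentobarbital, in which the left anterior descending coronary artery was tied for 90 min and reopened for 3 days. If the controls had no operation, surgery, anesthesia and occlusion cannot be told apart. Nothing states that the 3 samples of a group came from separate mice, so the p-values here reflect variation among samples that could be technical repeats. Arrays are named by the numbers in their column names, 109, 110 and 904 in the uninjured group and 106, 107 and 886 in the IR group.

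Heat shock proteins are molecular chaperones that keep unfolded proteins from aggregating and help them fold. The HSP70 proteins work in cycles of ATP hydrolysis that J-domain proteins start, and small heat shock proteins hold unfolded clients without ATP. In the heart, the small heat shock proteins protect desmin and the contractile filaments, and mitochondria have an HSP70, HSP60 and HSP10 system of their own for imported proteins. Under stress, heat shock factors bind repeats of the sequence nGAAn, called heat shock elements, and raise transcription of the inducible members.

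The RNA of a whole heart comes from many cell types, and marker genes of several moved strongly between the groups. Of 11 tested cardiomyocyte markers 9 fell and 1, Nppa, rose by 1.83 on the log2 scale. Their summed background-corrected intensity, with the rise of Nppa included, went from 105471 to 106528 on the uninjured arrays to 68599.7 to 73713 on the IR arrays. All 10 macrophage markers rose, with sums of 2519 to 2992 against 18661 to 20315, and Itgam was not detected on any uninjured array. All 6 tested neutrophil markers rose (34.6 to 82.9 against 2585 to 4039). None of the 6 was detected on all 6 arrays, Cxcr2 and Retnlg were detected on no uninjured array and Ngp on no array at all, so the uninjured sum is near background. Higher levels were also called for 7 of 8 fibroblast markers (8699 to 8946 against 14252 to 14396; Postn was not detected on uninjured arrays) and all 5 markers of dividing cells (86.0 to 118 against 1723 to 1774). The part of these shifts in the results on heat shock proteins was not tested, and in whole tissue fewer cells of a type and less RNA per cell cannot be told apart. Of the skeletal muscle list, Myh1 and Myh4 were detected on no array, Tnnt3 was not detected on uninjured arrays and rose at least 2.09-fold, Ckm, which heart muscle also expresses, fell by 4.10 on the log2 scale, and Acta1 did not pass (0.83 ± 0.36 SE; adjusted p = 0.0714). The number of detected probes was 15891 to 17843 per uninjured array and 18013 to 19243 per IR array.

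Among the 52 tested members, 27 fell, 9 rose and 16 did not pass the test (limma, Benjamini-Hochberg adjusted p under 0.05 over all tested genes). Over all genes 34.5% fell and 39.4% rose, and 73.9% were called in either direction. Among the members 51.9% fell and 17.3% rose, and 69.2% were called, so the share called was near the background while the split between directions was not that of all genes. A change of at least 2-fold was found downward in 10 members, against 13.6% of all genes, and upward in 2, against 15% of all genes. The values of the uninjured and IR arrays did not overlap for 38 of the 52 members, a share close to the 76.7% of all genes. The median log2 fold change was -0.35 for the members and 0.05 for all genes.

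The counts in each direction, of members and of all genes, rest on how the arrays are put on one scale. Quantile normalization gave the values above. When each array was instead divided by its median over all probes (all-probe scaling), the median of all genes moved to 0.52, and 23 members rose and 16 fell. Of all 10204 genes 6098 then rose and 1775 fell. Only 15891 to 19243 of the 45281 probes were detected per array. The median over all probes therefore lies among probes not well above background, so this scaling rests on background level rather than on expressed genes. When each array was divided by the median of its kept probes (detected-probe scaling), the median of all genes moved to -0.14, and 5 members rose and 33 fell. Of all genes 3324 then rose and 4464 fell. The median of the members was 0.17 under all-probe and -0.49 under detected-probe scaling, in both below that of all genes. Both scalings move all genes of an array alike, so they keep the distances between genes by construction. With arrays 109 and 110 against 106 and 107 alone, 7 members rose and 27 fell, and the higher numbers have 1 array per group and allow no test of their own.

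**Figure D1:**
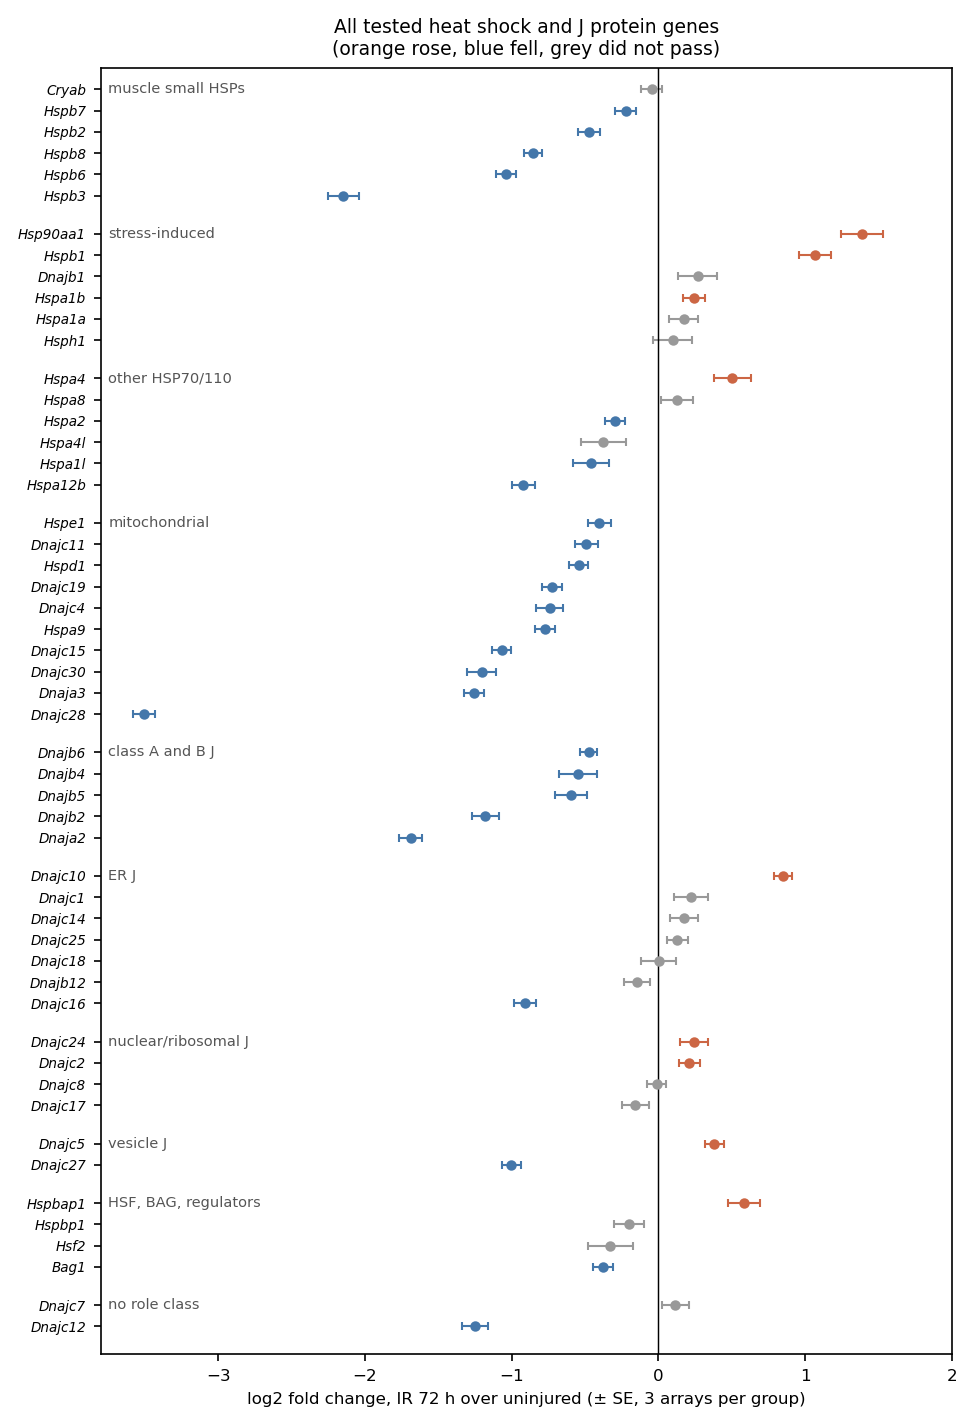
Log2 fold change of each tested member, IR 72 h over uninjured, with bars for the SE (3 arrays per group), grouped by role, in orange where it rose, blue where it fell and grey where it did not pass the test. With quantile normalization all 10 mitochondrial members lie left of 0 (8 with all-probe scaling), down to Dnajc28 at -3.51, and Hsp90aa1 lies farthest to the right at 1.39.

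The small heat shock proteins of muscle were lower after IR in 5 of 6 cases, where 34.5% of all genes fell. Hspb3, Hspb6, Hspb8, Hspb2 and Hspb7 fell, and Cryab did not pass the test. The median log2 fold change over the 6 genes was -0.66, and leaving out any single array kept 4 or 5 of them called.

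Hspb3, a small heat shock protein of muscle that pairs with Hspb2, changed most in this class. Its log2 intensity was 8.34, 8.72 and 8.49 on the uninjured arrays and 6.33, 6.44 and 6.34 on the IR arrays. The groups were far apart, with a log2 fold change of -2.15 ± 0.10 (SE, n = 3 per group; adjusted p = 1.50e-06), or 4.43-fold lower. Hspb6, also called HSP20, a phosphoprotein of heart and smooth muscle, gave 13.74, 13.72 and 13.68 without injury and 12.64, 12.76 and 12.63 after IR. All IR values lay below all uninjured ones, and the log2 fold change was -1.04 ± 0.07 (SE; adjusted p = 6.62e-06). Hspb8, which works with Bag3 in the removal of damaged filament proteins, gave 13.15, 13.17 and 13.15 against 12.29, 12.36 and 12.25. The spread within each group was small beside the log2 fold change of -0.85 ± 0.06 (SE; adjusted p = 1.28e-05), and its second probe also fell, by 1.31 on the log2 scale.

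Hspb2, whose gene lies within the annotated span of Cryab, gave 8.77, 8.59 and 8.69 on uninjured arrays and 8.24, 8.22 and 8.16 on IR arrays. These values did not overlap, and the log2 fold change was -0.47 ± 0.07 (SE; adjusted p = 0.000707). Hspb7, a small heat shock protein of heart muscle that binds filamin, gave 11.81, 11.84 and 11.81 against 11.61, 11.50 and 11.68. The groups were separate by a narrow margin, with a log2 fold change of -0.22 ± 0.07 (SE; adjusted p = 0.0224). That call was lost without IR array 106 (-0.23, adjusted p = 0.0562) and without IR array 107 (-0.18, adjusted p = 0.0713). Cryab, the alpha-B crystallin that binds desmin, gave 12.75, 12.74 and 12.68 against 12.63, 12.63 and 12.77. The IR array 886 was as high as the uninjured ones, and the log2 fold change was -0.05 ± 0.07 (SE; adjusted p = 0.578). Under all-probe scaling Hspb2, Hspb7 and Cryab lay slightly higher after IR (0.12, 0.062 and 0.18) without passing the test. Under it 3 members of the class fell, whereas all 6 fell under detected-probe scaling. Of all 10204 genes 1775 fell under the former and 4464 under the latter.

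Among the 6 cytosolic chaperones known to be induced by stress, Hsp90aa1, Hspb1 and Hspa1b rose, and Dnajb1, Hspa1a and Hsph1 did not pass the test. The 3 of 6 that rose are near the 39.4% of all genes. Their median log2 fold change was 0.25.

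Hsp90aa1, the inducible HSP90, gave 7.70, 8.09 and 7.51 on uninjured arrays and 9.10, 9.17 and 9.19 on IR arrays. The IR arrays were tightly grouped above all uninjured arrays, with a log2 fold change of 1.39 ± 0.14 (SE; adjusted p = 8.08e-05), or 2.62-fold higher. Another detected probe of the gene was higher by 0.57 ± 0.20 on the log2 scale (SE). Hspb1, also called HSP27 or in mouse HSP25, which binds actin filaments, gave 10.57, 10.92 and 10.65 against 11.76, 11.89 and 11.69. Its groups did not overlap, and the log2 fold change was 1.07 ± 0.11 (SE; adjusted p = 7.08e-05), or 2.10-fold higher.

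Hspa1a and Hspa1b encode the inducible HSP70, and since these copies are nearly identical a probe of one may read the other, so their values are uncertain. Hspa1b gave 4.72, 4.87 and 4.67 against 5.01, 4.96 and 5.01, and its probe was detected on 1 of 3 uninjured arrays. The difference was small, 0.24 ± 0.08 on the log2 scale (SE; adjusted p = 0.0217), and the call was lost without uninjured array 109 (0.22, adjusted p = 0.0592) or 904 (0.20, 0.0619) and without IR array 106 (0.23, 0.0668) or 886 (0.23, 0.0650). It was also lost without background correction, with an offset of 50, on the authors' values with and without the replicate block, in the robust and trended fit and with the lower array numbers alone (adjusted p = 0.0924 to 0.227). It turned to -0.21 under detected-probe scaling and then passed the test as lower. Hspa1a gave 6.19, 5.95 and 6.29 against 6.31, 6.38 and 6.26, with overlapping groups and a log2 fold change of 0.17 ± 0.10 (SE; adjusted p = 0.152).

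Dnajb1, the HSP40 that pairs with inducible HSP70, gave 9.36, 8.98 and 9.31 against 9.62, 9.29 and 9.55. IR array 107 fell within the uninjured range, and the log2 fold change was 0.27 ± 0.13 (SE; adjusted p = 0.105). Without that array it was 0.37 with an adjusted p of 0.0489. Dnajb1 also passed as higher without background correction, on the authors' values with and without the replicate block, and under all-probe scaling. It kept its uncalled status in 13 of 18 alternatives. Hsph1, the HSP110 that exchanges nucleotide on HSP70, gave 8.67, 8.89 and 8.57 against 8.86, 8.57 and 8.99, and IR array 886 alone lay above the uninjured range (0.10 ± 0.13 SE; adjusted p = 0.526).

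**Figure D2:**
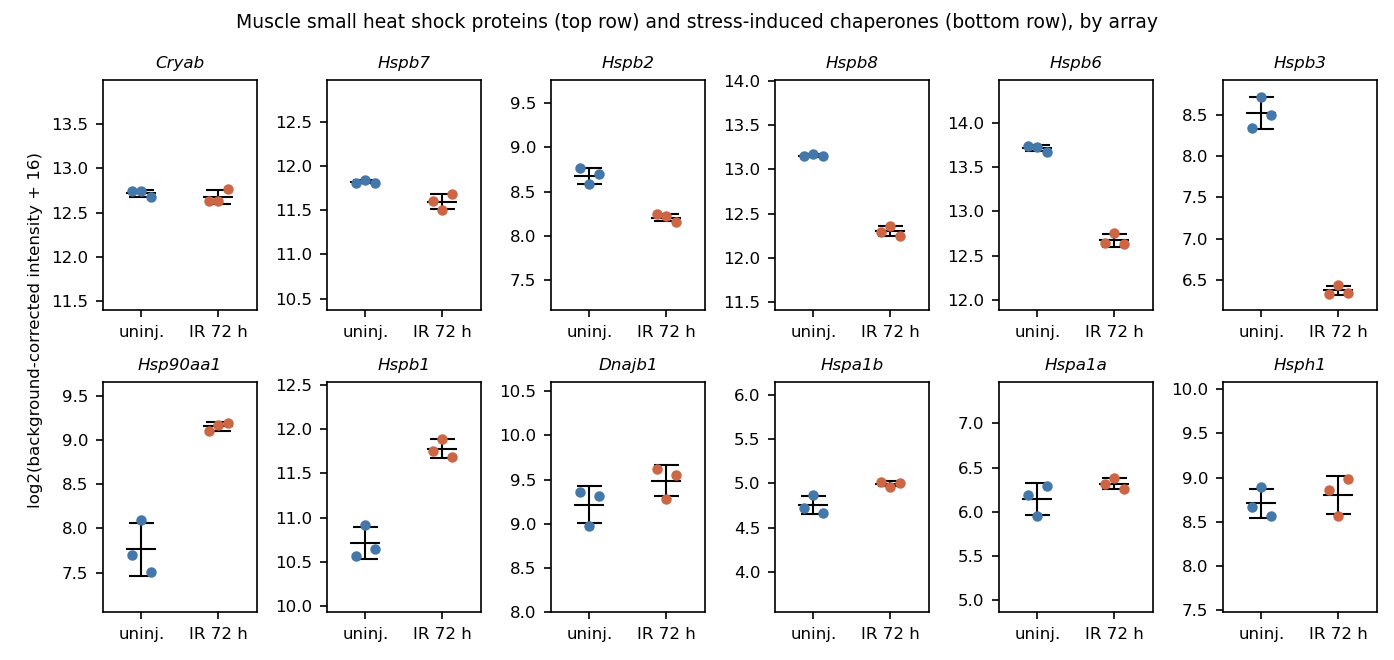
Log2(background-corrected intensity + 16) of the 6 muscle small heat shock proteins and the 6 stress-induced chaperones on each array (points), with the group mean and SD (black; n = 3 per group). The IR points of Hspb3 and Hspb6 lie below all uninjured points, those of Hsp90aa1 and Hspb1 above them, and those of Cryab and Hsph1 overlap them in part.

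Set side by side, the median log2 fold change of the muscle class was 0.92 below that of the stress-induced class, at -0.66 against 0.25. Relative to the median of all genes these were -0.71 and 0.21 under quantile normalization, and -0.83 and 0.27 under both other scalings, which by construction give the same distances. The counts did depend on the scaling, since 6 stress-induced members rose under all-probe scaling and 2 rose and 1 fell under detected-probe scaling. Of all 10204 genes 6098 rose and 1775 fell under all-probe scaling, and 3324 rose and 4464 fell under detected-probe scaling. Hspb1 is itself abundant in muscle. With Hspb1 counted among the muscle proteins, 5 of 7 fell and 1 rose, and the medians were -0.47 for muscle and 0.24 for the 5 remaining stress-induced genes.

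**Figure D3:**
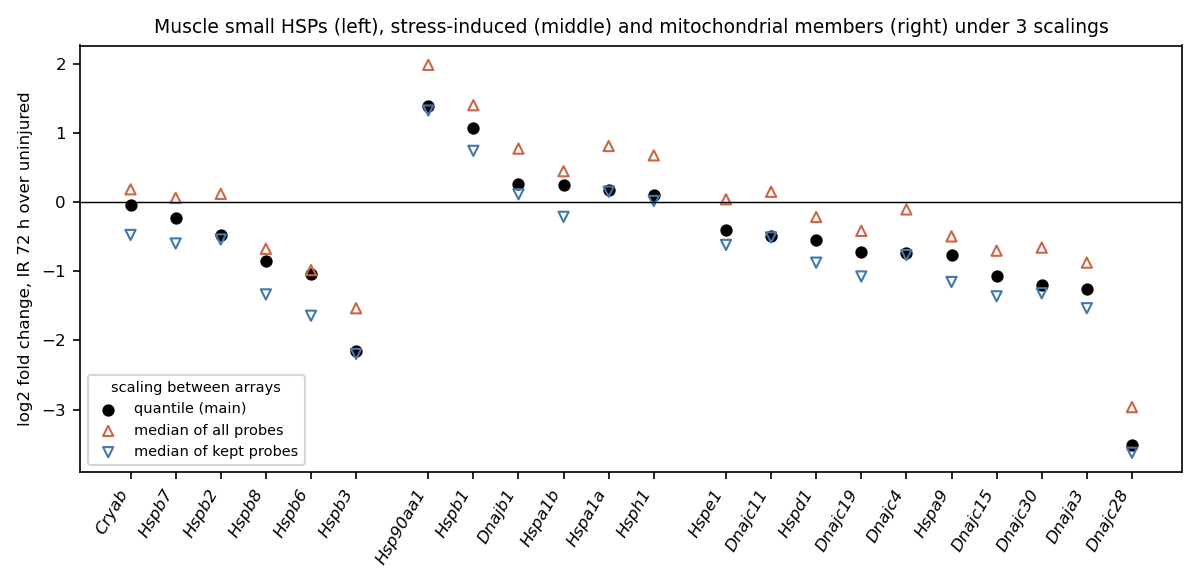
Log2 fold change, IR 72 h over uninjured, of each muscle small heat shock protein (left), stress-induced chaperone (middle) and mitochondrial member (right) under quantile normalization (filled circles), all-probe scaling (triangles pointing up) and detected-probe scaling (triangles pointing down). The triangles pointing up lie above the circles throughout, so that Cryab, Hspb7, Hspb2, Hspe1 and Dnajc11 cross 0, and Hspa1b crosses 0 downward under detected-probe scaling.

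Since heat shock factors act through the elements described above, the promoters were searched for GAANNTTC, which pairs one nGAAn unit with its inverted neighbour and reads the same on both strands. RefSeq windows (GRCm38.p6) of 300 bases, from 250 before to 50 after an annotated start, were found for 54 of the 67 members, and Cryab, Hspb2 and Hsp90aa1 were not among them. The motif occurred in 15 of 70 member windows (21.4%), of 13 genes, and in 7.86% of all 32851 windows. A run of 3 units, which adds TTCNN before the motif or NNGAA after it and so contains it, was found in 6 member windows (8.57%), of Dnajb6, Hspd1, Hspe1 and Hsph1, and in 0.603% of all windows. Heat shock proteins are the textbook carriers of these elements, windows of 1 gene or of neighbours overlap, and a match is a description of the letters only.

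The windows of 4 members are shown because they set the sequence beside opposite values of the array. They belong to Hspb1 and Hspa1b of the stress-induced class, which were higher after IR, to Hspb6, the muscle protein with a fall of 1.04, and to Hspe1 of mitochondria, which also fell. The call of Hspa1b, from a probe near background, was kept in 6 of 17 alternatives and turned to lower under detected-probe scaling. All are written 5′ to 3′ on the strand of the gene, with the matches in capitals: Hspb1 at chr5:135887669-135887968 on the plus strand, Hspa1b at chr17:34959189-34959488 on the minus strand, Hspb6 at chr7:30553051-30553350 on the plus strand and Hspe1 at chr1:55087898-55088197 on the plus strand.
Hspb1: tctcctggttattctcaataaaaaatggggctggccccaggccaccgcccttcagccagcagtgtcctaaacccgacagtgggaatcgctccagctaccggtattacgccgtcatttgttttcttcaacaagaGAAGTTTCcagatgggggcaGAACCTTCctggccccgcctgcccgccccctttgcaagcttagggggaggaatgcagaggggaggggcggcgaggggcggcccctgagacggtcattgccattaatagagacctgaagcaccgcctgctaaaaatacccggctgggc
Hspa1b: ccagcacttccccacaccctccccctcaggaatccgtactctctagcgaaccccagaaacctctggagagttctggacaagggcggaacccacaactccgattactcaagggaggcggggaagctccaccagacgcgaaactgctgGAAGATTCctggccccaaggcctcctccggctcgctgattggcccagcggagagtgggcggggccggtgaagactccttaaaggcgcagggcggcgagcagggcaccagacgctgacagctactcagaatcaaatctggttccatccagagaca
Hspb6: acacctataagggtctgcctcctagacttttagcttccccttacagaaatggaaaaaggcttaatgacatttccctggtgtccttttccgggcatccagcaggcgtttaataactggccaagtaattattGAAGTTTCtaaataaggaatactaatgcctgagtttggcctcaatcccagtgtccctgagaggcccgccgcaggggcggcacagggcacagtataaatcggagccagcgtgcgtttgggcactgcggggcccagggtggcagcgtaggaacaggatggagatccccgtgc
Hspe1: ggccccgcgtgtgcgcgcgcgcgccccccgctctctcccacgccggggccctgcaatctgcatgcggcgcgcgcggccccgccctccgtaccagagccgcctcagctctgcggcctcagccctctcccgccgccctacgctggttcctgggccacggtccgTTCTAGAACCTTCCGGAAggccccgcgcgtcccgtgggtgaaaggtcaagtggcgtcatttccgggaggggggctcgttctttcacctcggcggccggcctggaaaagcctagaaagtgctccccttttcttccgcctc
Hspb1 has 2 matches, whose first bases lie at positions -117 and -97 from the transcript start that sets the window, and Hspa1b has 1 at -104, the same position as in Hspa1a. The match of Hspb6 lies at -120 from an inner transcript start, within the annotated gene, and the window of its first start held none. Hspe1 shares 285 of its 300 bases with the window of Hspd1, which starts from the other strand, and its capitals span 2 overlapping runs of 3 units that belong to both genes.

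By direction of change, the motif was found in 2 of 6 windows of members that rose, those of Hspb1 and of Hspa1b, whose call most alternatives did not keep. It was in 8 of 30 windows of members that fell, counting windows of Dnajb6, whose probes were called in opposite directions. Among members that did not pass, 3 of 17 windows held the motif. By class it was in 5 of 7 windows of the stress-induced genes and in 3 of 5 windows of the muscle small heat shock proteins, those of Hspb3, Hspb6 and Hspb8. Hspb7 was the only other muscle gene with a window. These are counts without a test, with directions under quantile normalization.

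The other HSP70 and HSP110 genes of the cytosol moved by modest amounts, with 1 that rose and 3 that fell of 6 tested. Over all genes 39.4% rose and 34.5% fell. Hspa4, an HSP110 that exchanges nucleotide on HSP70, gave 6.55, 6.68 and 6.18 against 6.95, 6.94 and 7.02. The groups did not overlap, and it rose by 0.51 ± 0.13 on the log2 scale (SE; adjusted p = 0.00891). Hspa8, the constitutive HSP70, gave 12.78, 12.62 and 12.71 against 12.92, 12.61 and 12.96. IR array 107 lay below all uninjured arrays, and the log2 fold change was 0.13 ± 0.11 (SE; adjusted p = 0.324). Of its other probes one did not pass (0.11), and one rose by 0.23 ± 0.07 (SE; adjusted p = 0.0141 over all kept probes), with all IR arrays above all uninjured ones. Without IR array 107 the brightest probe gave 0.24 (adjusted p = 0.0437), and it was called higher under all-probe scaling (0.33) and lower under detected-probe scaling (-0.33).

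Hspa12b, a distant HSP70 relative of endothelial cells, gave 8.59, 8.53 and 8.62 against 7.59, 7.60 and 7.78. Its groups were well apart, and it fell by 0.92 on the log2 scale (SE 0.08; adjusted p = 2.50e-05). Of 6 tested endothelial markers 3 fell and 1 rose, and their summed intensity was 2167 to 2259.6 on uninjured arrays and 2048 to 2087 on IR arrays, with Kdr and Fabp4 detected on no array. Hspa1l and Hspa2, HSP70 genes known from the testis, fell by 0.46 and 0.29 on the log2 scale (adjusted p = 0.0121 and 0.00512). The second detected probe of Hspa2 gave -0.12 and did not pass. Under all-probe scaling both genes lay above 0, Hspa1l at 0.20 without passing and Hspa2 at 0.32 and called higher (adjusted p = 0.0285). Hspa4l did not pass (-0.38 ± 0.15 SE; adjusted p = 0.0605), and it passed when uninjured array 109 (-0.49, 0.0259), 110 (-0.19, 0.0457) or 904 (-0.45, 0.0474) was left out. It also passed as lower among genes detected on all 6 arrays and under detected-probe scaling, and lay at 0.060 under all-probe scaling. Its uncalled status was kept in 12 of 18 alternatives.

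Every one of the 10 tested chaperones and J proteins of mitochondria fell, with a median log2 fold change of -0.76 and no overlap between the groups, although all-probe scaling left 6 called. Over all genes 34.5% fell and 76.7% did not overlap, and under all-probe scaling 1775 of 10204 genes fell. Hspa9, the mitochondrial HSP70 called mortalin, gave 12.51, 12.41 and 12.55 on uninjured arrays and 11.74, 11.66 and 11.75 on IR arrays. Both of its probes fell, the brighter by 0.77 on the log2 scale (SE 0.07; adjusted p = 3.49e-05) and the other by 0.91. Hspd1, the HSP60 chaperonin, gave 11.37, 11.34 and 11.36 against 10.80, 10.77 and 10.88. Its groups were tight and separate, and it fell by 0.54 (SE 0.06; adjusted p = 0.000166), with -0.76 at its second probe. Hspe1, the HSP10 that closes the HSP60 chamber, gave 9.93, 9.98 and 9.87 against 9.51, 9.42 and 9.64, without overlap. It fell by 0.40 (SE 0.08; adjusted p = 0.00251).

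The J proteins of mitochondria spread more widely than the chaperones. Dnajc28, a mitochondrial J-domain protein of little-known function, gave 9.20, 9.18 and 9.31 against 5.80, 5.74 and 5.63. This was the largest change of any tested member, a log2 fold change of -3.51 ± 0.08 (SE; adjusted p = 1.03e-07) or 11.4-fold lower, and 42 of all tested genes had a lower value. Its second probe was not well above background on any IR array and was at least 3.30-fold lower there. Dnaja3, the partner of mortalin called Tid1, gave 11.07, 11.14 and 11.09 against 9.85, 9.90 and 9.78. The groups were more than 1 log2 unit apart (-1.26 ± 0.07 SE; adjusted p = 2.09e-06), while its other detected probes, both dim, gave -0.45 and 0.08 and did not pass.

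Dnajc30, a J protein of the inner membrane, gave 9.22, 9.27 and 9.34 against 7.91, 8.26 and 8.06, again without overlap, and fell by 1.20 (SE 0.10; adjusted p = 2.25e-05). Dnajc15 and Dnajc19, related proteins of the import motor, fell by 1.07 and 0.72 on the log2 scale. The other probes of Dnajc19 gave -0.34 and 0.00 and did not pass. Dnajc4 and Dnajc11, the latter a partner of the complex that shapes the cristae, fell by 0.74 and 0.49. All 10 fell under detected-probe scaling, whereas under all-probe scaling Hspd1 (-0.22) and Dnajc4 (-0.11) lost their calls and Hspe1 and Dnajc11 lay above 0, at 0.041 and 0.15.

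**Figure D4:**
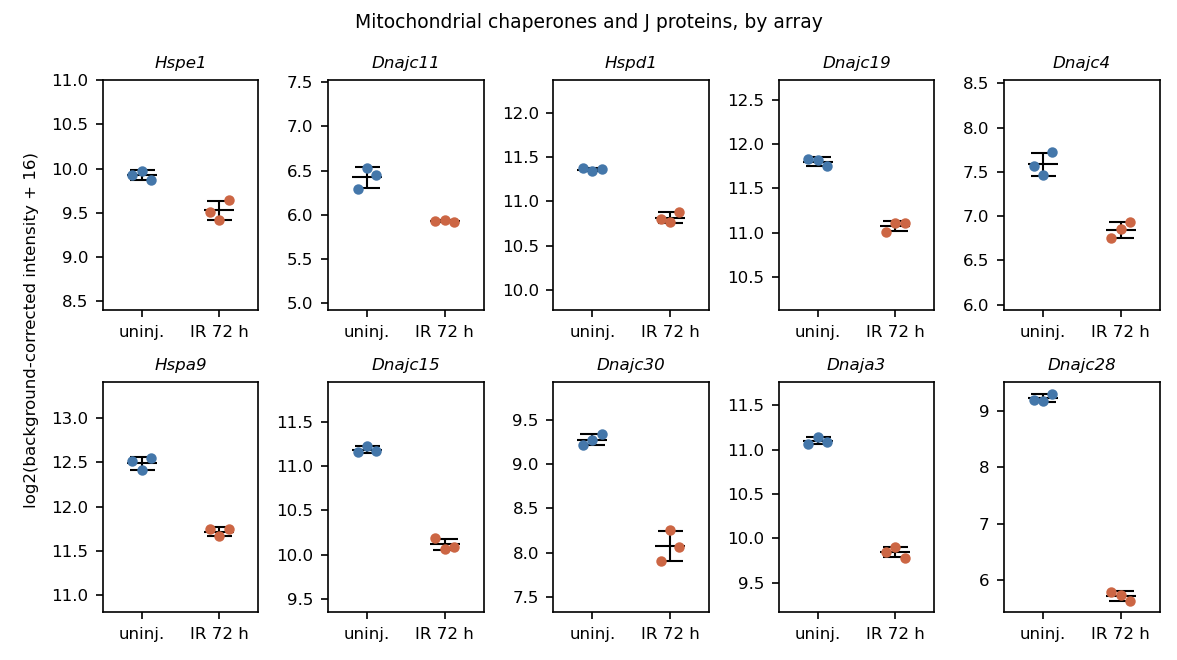
Log2(background-corrected intensity + 16) of the 10 mitochondrial chaperones and J proteins on each array (points), with the group mean and SD (black; n = 3 per group). With quantile normalization the IR points lie below the uninjured points in every panel, by least in Hspe1, which all-probe scaling put at 0.041, and by most in Dnajc28.

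Class A and B J proteins of the cytosol and nucleus, the general HSP70 starters, gave 5 tested members, and all 5 fell by their brightest probe, with a median of -0.60. Over all genes 34.5% fell. Dnaja2, which assists HSP70 in refolding, gave 8.45, 8.49 and 8.61 against 6.79, 6.77 and 6.93. It fell 3.22-fold (-1.69 ± 0.08 SE; adjusted p = 1.19e-06), with -1.25 at its second probe, and the groups were far apart. Dnajb2, which binds ubiquitin, gave 9.17, 9.07 and 9.32 against 8.12, 8.01 and 7.90. No IR array reached the uninjured range, and it fell by 1.18 on the log2 scale (SE 0.09; adjusted p = 1.76e-05).

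Dnajb5 and Dnajb4 fell by 0.60 (SE 0.11; adjusted p = 0.00196) and 0.55 (SE 0.13; adjusted p = 0.00667). Dnajb5 was detected on 1 of 3 IR arrays. Dnajb6, a suppressor of aggregation found at the Z-disc, depends on the probe. Its brightest probe fell (-0.47 ± 0.06 SE), a second probe rose (0.56 ± 0.09 SE) and the third did not pass (0.12), and which transcripts each probe binds was not examined. Dnajb6 and Dnajb4 lay at 0.10 and 0.075 under all-probe scaling. Under that scaling 3 of the 5 fell, beside 1775 of all 10204 genes. The mean of its detected probes put Dnajb6 at 0.068. Of 18 members with more than 1 detected probe, 4 had probes of both signs (Dnaja3, Dnajb6, Dnajc19 and Dnajc5), and Dnajb6 was the 1 with opposite calls.

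Among 7 tested J proteins of the ER, 1 rose and 1 fell, where 39.4% of all genes rose and 34.5% fell. Dnajc10, known as ERdj5, a reductase that opens disulfide bonds of misfolded proteins, gave 8.39, 8.34 and 8.37 against 9.23, 9.25 and 9.17. The groups were tight and separate, and it rose by 0.85 ± 0.06 on the log2 scale (SE; adjusted p = 1.20e-05), and its second probe, not well above background on any uninjured array, was at least 1.17-fold higher. Dnajc16, of the ER membrane, gave 8.72, 8.53 and 8.60 against 7.73, 7.71 and 7.68. It fell by 0.91 (SE 0.07; adjusted p = 1.90e-05) at that probe, while its others gave -0.13 and -0.11 and did not pass. Dnajc25 (0.13), Dnajc18 (0.00) and Dnajb12 (-0.15) did not pass. Dnajb12 passed without uninjured array 110 (-0.22, adjusted p = 0.0423), and under all-probe scaling it turned to 0.51. Dnajc1 and Dnajc14 entered the test through the IR arrays alone, since neither was well above background on any uninjured array, and neither passed. The bound of 1.02-fold for Dnajc14 carries no error, and its groups overlapped (0.18 ± 0.10 SE; adjusted p = 0.135), so no rise is shown. No bound can be given for Dnajc1.

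The J proteins of the nucleus, the ribosome and RNA processing stayed within 0.25 log2 units. Dnajc2, which sits at the ribosome exit, and Dnajc24, which acts in diphthamide synthesis, rose by 0.21 ± 0.07 (SE; adjusted p = 0.0334) and 0.24 ± 0.09 (SE; adjusted p = 0.0479). The second detected probe of Dnajc2 gave 0.16 and did not pass. The Dnajc24 values were 7.50, 7.70 and 7.40 against 7.70, 7.78 and 7.85 and touched at their edges. Both calls were lost without any 1 of arrays 109, 904, 106, 107 and 886, with adjusted p-values of 0.0620 to 0.0992 for Dnajc2 and 0.0606 to 0.145 for Dnajc24. With the number series of the arrays as a block they were lost too (adjusted p = 0.0518 and 0.0676). No member of this class rose under detected-probe scaling or with the lower array numbers alone. Each of the calls of Dnajc2 and Dnajc24 was kept in 9 of 18 alternatives. Dnajc8, a splicing factor, and Dnajc17 did not pass (-0.01 and -0.16), and lay at 0.61 and 0.26 under all-probe scaling.

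The vesicle and endosome class held 1 that rose and 1 that fell, where 39.4% of all genes rose and 34.5% fell. Dnajc5, the cysteine string protein of secretory vesicles, gave 9.89, 9.80 and 9.84 against 10.24, 10.19 and 10.24 and rose by 0.38 ± 0.06 on the log2 scale (SE; adjusted p = 0.00101), with -0.03 at its second probe, and lost the call under detected-probe scaling (0.15, adjusted p = 0.0828). Dnajc27, a small GTPase with a J domain, gave 5.91, 5.94 and 5.84 against 4.88, 4.87 and 4.92 and fell by 1.00 (SE 0.06; adjusted p = 5.48e-06). In neither gene did the groups overlap. The IR values of Dnajc27 lay near the lowest detected values of those arrays, 4.61 to 4.68, so the size of its fall is uncertain. Dnajc12, known in human as a cochaperone of the aromatic amino acid hydroxylases, fell by 1.25 (SE 0.09; adjusted p = 8.94e-06), and Dnajc7, which binds both HSP70 and HSP90, did not pass (0.11).

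Of the regulators, Bag1, a nucleotide exchange factor of HSP70, gave 12.07, 11.93 and 12.01 against 11.65, 11.58 and 11.65. The groups did not overlap, and it fell by 0.38 (SE 0.07; adjusted p = 0.00162), a call lost under all-probe scaling (-0.12, adjusted p = 0.366). Hspbap1, which binds Hspb1, gave 5.31, 5.32 and 5.57 against 6.13, 5.83 and 5.99 and rose by 0.58 ± 0.11 (SE; adjusted p = 0.0019). Hspbp1, another exchange factor of HSP70, did not pass (-0.20; adjusted p = 0.120). Heat shock factor 2, Hsf2, gave 6.66, 6.58 and 6.99 against 6.16, 6.63 and 6.46, with groups that overlapped (-0.33 ± 0.15 SE; adjusted p = 0.0885), and it passed without IR array 107 (-0.43, adjusted p = 0.0495). Both Hspbp1 and Hsf2 lay above 0 under all-probe scaling (0.46 and 0.34).

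The 15 members without a tested value were dim. No probe of Dnaja1, Dnajb7, Dnajb14, Dnajc5g, Dnajc9, Hspa13, Hspa14, Hspb9 or Hspb11 was detected on any array. Hspa12a was detected on 2 uninjured arrays and no IR array, Dnajb3 and Dnajb13 on 2 IR arrays and no uninjured one, Dnajb8 on 1 of each, Dnajc5b on 1 uninjured array and Dnajc6 on 1 IR array. A probe that is not well above background gives no level for its transcript.

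Partners of the HSP70 and HSP90 machines were taken as lists. Of 9 cofactors of HSP70, 5 fell and 3 rose, led by Bag3, the partner of Hspb8, at -0.90 ± 0.08 (SE; adjusted p = 3.12e-05) and by Bag4 at 0.95. Of 14 cochaperones of HSP90, 6 fell and 2 rose. Smyd1 and Unc45b, which act with HSP90 on muscle myosin, fell by 2.34 (SE 0.17) and 1.24 on the log2 scale. Fkbp4 and Fkbp5, immunophilins that compete in steroid receptor complexes, went opposite ways, at -1.93 ± 0.07 and 1.81 ± 0.13 (SE). Unc45b and Fkbp5 were singled out after their values were seen. Under all-probe scaling the counts were 1 fell and 4 rose among the HSP70 cofactors and 4 fell and 8 rose among the HSP90 cochaperones. Of all 10204 genes 1775 fell and 6098 rose under that scaling.

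The chaperonin TRiC, which folds actin and tubulin, had 6 of its 8 subunits higher, led by Cct8 at 0.92 ± 0.08 and Cct3 at 0.81 ± 0.07 (SE). This was 8 under all-probe scaling and 3 under detected-probe scaling. Of 4 prefoldin subunits, which hand actin and tubulin to TRiC, 1 rose (Pfdn4, 0.48) and 2 fell, among them Pfdn2 (-0.45), which lay at 0.012 under all-probe scaling. Of 8 mitochondrial partners and proteases 7 fell, led by Clpx and Lonp1, ATP-driven proteins of the matrix proteases, at -1.65 ± 0.08 and -1.15 ± 0.08 (SE). All-probe scaling left 6 of these and detected-probe scaling 8. These shares stand beside 39.4% that rose and 34.5% that fell among all genes. Of the 10204 genes 6098 rose and 1775 fell under all-probe scaling, and 3324 rose and 4464 fell under detected-probe scaling.

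**Figure D5:**
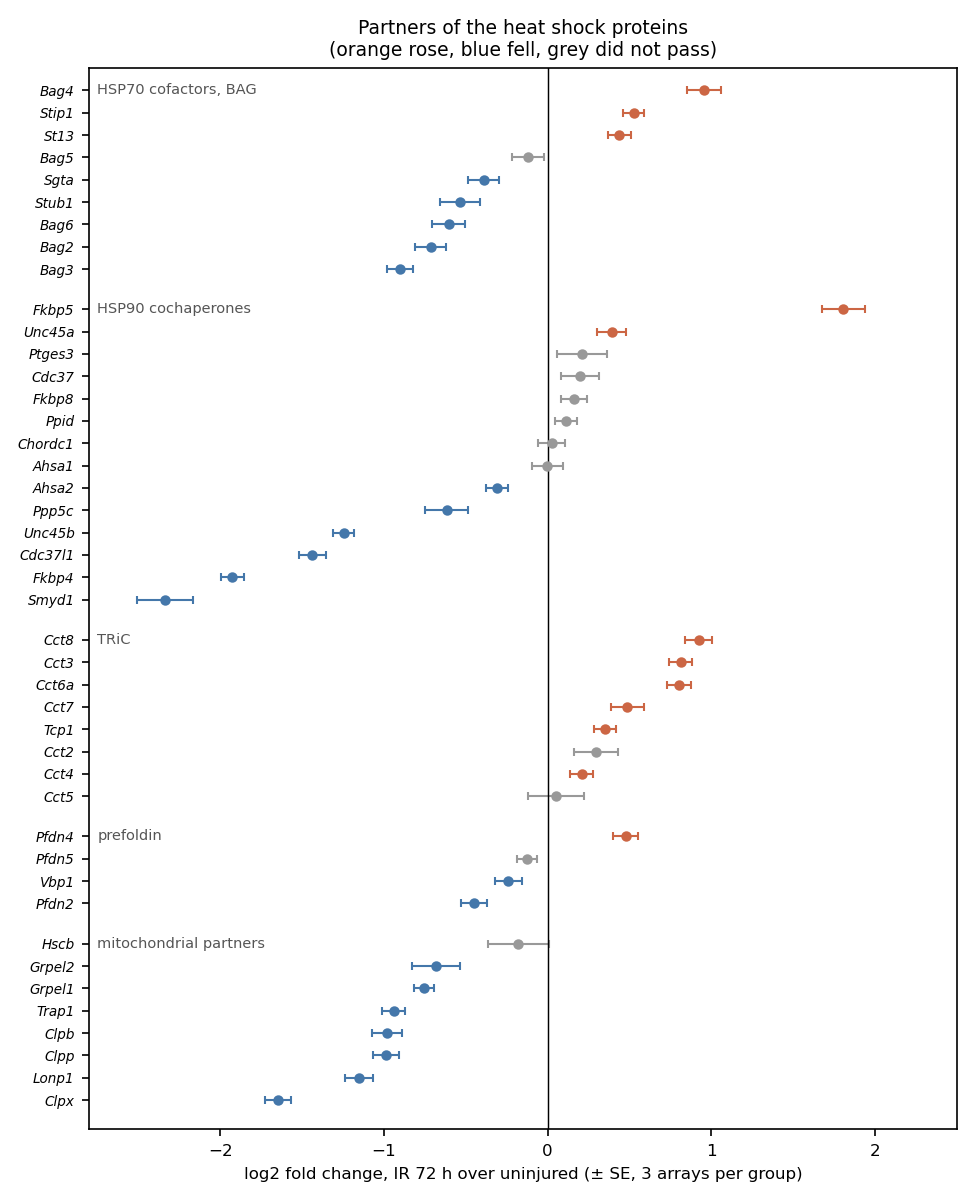
Log2 fold change, IR 72 h over uninjured, of the tested partners of the heat shock proteins, with bars for the SE (3 arrays per group), in orange where they rose, blue where they fell and grey where they did not pass the test. With quantile normalization TRiC subunits lie right of 0 and mitochondrial partners left of it, and the HSP90 cochaperones reach from Smyd1 at -2.34 to Fkbp5 at 1.81.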

How the data were processed

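Total RNA of 6 heart samples, 3 uninjured and 3 taken 72 h after IR, was biotin-labelled and each sample was read on its own Illumina bead array. The authors deposited probe intensities with detection p-values for 45281 probes, per the file headers. Per the submitters' processing notes GenomeStudio 2010.3 was used. The intensities carried no normalization between arrays, as read from the values. The authors also deposited processed intensities, which were quantile-normalized on a linear scale with column medians of 88.37 to 88.43, and these served as an alternative. The genome build used for the probes is not given in the sources used here.

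Background correction from the deposited detection p-values, an offset of 16, quantile normalization and log2 were done with neqc of limma 3.58.1 in R 4.3.3. Probes with a detection p-value under 0.05 on at least 3 arrays were kept (18197), and 1 probe with the highest mean stood for each gene named by 1 symbol (10204 genes). Symbols came from the platform annotation. Groups were compared with lmFit and eBayes, with Benjamini-Hochberg adjustment over all tested genes. An adjusted p under 0.05 is called rose or fell. Printed levels are log2 values after this step. Only the limma fit was tested on simulated data, with normal values in which few genes changed. Background correction and scaling between arrays were not covered by that test.

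The members, role classes and lists were chosen with earlier results of these data known, so no list has a test. The classes rest on textbook roles. Named were all members of the muscle and stress-induced classes, Hspd1, Hspe1, Hspa9, Hspa8, Hsf2, Bag1 and the most changed genes of every other class and partner list, and the remaining tested members are given by their values. Promoter windows and their coordinates come from RefSeq (GRCm38.p6). Alternatives covered background, offset, scaling, detection filter, choice of probe, the robust and trended fit (statmod 1.5.0), the number series of the arrays, the replicate block and leaving out each array. The small number of arrays limits the precision.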

Additional observations from a re-analysis of the deposited data

How the results depend on the processing

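Scaling decided the counts. Under all-probe scaling 6098 of all tested genes rose and 1775 fell, 77.5% of calls being higher against 53.3% with quantile normalization and 42.7% with detected-probe scaling. Of the members 23 rose and 16 fell, of the muscle small heat shock proteins 3 fell, and of the stress-induced class 6 rose. Under detected-probe scaling 3324 of all tested genes rose and 4464 fell, and 5 members rose and 33 fell. The muscle median was then -0.31 and -0.97, the stress-induced median 0.79 and 0.13, and their difference -1.10 under both, by construction the same. The muscle median was -0.62 without background correction, -0.61 on the authors' processed values and -0.76 with the mean of all detected probes. The stress-induced median was 0.17 without background correction and on the authors' values. The difference was -0.79 without background correction, -0.83 with an offset of 50, -0.78 on the authors' values, -1.01 with the mean of probes and -0.71 with Hspb1 moved to the muscle class. Leaving out 1 array gave 6 to 9 members that rose and 26 to 29 that fell. The signal columns carry no replicate number, so the replicate block was fitted on the authors' values. Correlations of same-numbered arrays, taken on deviations from the group means, were -0.04, -0.01 and -0.07. Deviations from a mean of 3 arrays are tied together, so these values cannot settle whether the numbers pair the samples. With the block 9 members rose and 28 fell, against 9 and 27 without it, the class medians were -0.61 and 0.17 and their difference -0.78, and 3941 of all genes rose and 3497 fell.

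Signs turned under all-probe scaling for Cryab (0.18), Dnajb12 (0.51), Dnajb4 (0.075), Dnajb6 (0.10), Dnajc11 (0.15), Dnajc17 (0.26), Dnajc8 (0.61), Hsf2 (0.34), Hspa1l (0.20), Hspa2 (0.32), Hspa4l (0.060), Hspb2 (0.12), Hspb7 (0.062), Hspbp1 (0.46), Hspe1 (0.041) and Pfdn2 (0.012). They turned under detected-probe scaling for Dnajc1 (-0.31), Dnajc14 (-0.34), Dnajc18 (-0.12), Hspa1b (-0.21) and Hspa8 (-0.33), and with the mean of probes for Dnajb6 (0.068). Dnajc18, at 0.00, went to -0.00098 without background correction, -0.00071 with the offset of 50, -0.00082 on the authors' values with and without the block, and -0.13 to 0.077 when 1 array was left out. Dnajc8 ranged from -0.038 to 0.010 over those fits, and Hsph1 lay at -0.065 with the lower array numbers alone. Over 62 named genes and all alternatives, 1021 of 1112 values kept direction and call, 34 lost and 26 gained a call, and 31 changed sign. Probes near background limit Hspa1b, Dnajc1 and Dnajc14, and on the IR arrays also Dnajb5 and Dnajc27. The cause of each change was not tested.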
